A study of Homo sapiens with 12 samples.

Results

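In MDA-MB-231 cells labelled ERK5-ko, 103 protein-coding genes stood higher than in the parental control, and the same genes stood lower in Hs-578T cells of that label. They were selected on measured values, as the genes whose mean log2(RPKM + 0.5) was at least 0.585 (a fold of 1.5) above the parental control in MDA-MB-231 and at least 0.585 below it in Hs-578T. RPKM is the number of reads on a gene per kilobase of its model, scaled to the library total, so levels can be compared between genes. The 103 genes were drawn from 13737 protein-coding genes that reached an RPKM of 0.5 in 2 or more libraries. By the same limits, 251 genes went the reverse way in both lines, 41 stood higher in both and 57 lower in both.

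RNA was sequenced from MDA-MB-231 and Hs-578T, established mesenchymal cell lines of triple-negative breast cancer, in 12 libraries, 2 for each of 3 labels per line. The parental controls were at passages 29 and 30 in MDA-MB-231 and 83 and 84 in Hs-578T. The ERK5-ko cells carried a CRISPR/Cas9 plasmid with guides to exons 3 and 5 of MAPK7, the gene of ERK5, and were grown from single sorted cells, at passages 7 and 8 in MDA-MB-231 and 8 and 9 in Hs-578T. The MDA-MB-231 ERK5-ko line was 1 surviving clone, and which Hs-578T clone was sequenced is not given in the sources used here. By their label, the MEK5DD cells carry MEK5 in a form that is always active, and whether ERK5 was phosphorylated in them was not tested. They were at passages 10 and 11 in MDA-MB-231 and 8 and 9 in Hs-578T, and how they were made is not given in the sources used here. All cells were grown in medium with fetal bovine serum. Passage and label cannot be told apart, nor can the label and the clone. Nothing says that the 2 libraries of a group came from separately derived cells, so p-values measure only the spread between these samples, which may be technical.

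ERK5 is a mitogen-activated protein kinase with a long C-terminal tail that also acts in transcription. Growth factors and stress reach it through MEKK2 or MEKK3 and then MEK5, which phosphorylates ERK5 and no other known kinase of the family, and active ERK5 turns on transcription factors such as those of the MEF2 family. In breast cancer cells the pathway is known for its link to epithelial-mesenchymal transition, migration and the extracellular matrix.

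Library totals recovered from the values lay between 20248162 and 27791195 reads. The RNA of MAPK7 did not check the ERK5-ko label. Its RPKM was 16.3 and 17.8 in the MDA-MB-231 libraries labelled ERK5-ko beside 13.3 and 14.3 in the parental control. In Hs-578T it was 17.8 and 18.1 beside 14.0 and 16. By Western blot, the study reported that ERK5 protein was strongly reduced in ERK5-ko cells of both lines. MAP2K5, the gene of MEK5, had 188 and 184 RPKM in the MDA-MB-231 libraries labelled MEK5DD beside 12.9 and 13.6 in the parental control (limma adjusted p = 3.31e-10), whereas in Hs-578T it had 21.3 and 23.8 beside 14.6 and 16.9, a log2 difference of 0.51 ± 0.10 (SE; adjusted p = 0.00492) that lay under the fold of 1.5. The MEK5DD label therefore stood for unequal levels of MAP2K5 RNA in the lines. ESR1 and PGR were at or under 0.348 RPKM in all 12 libraries while VIM, the mesenchymal filament protein vimentin, had at least 1600 RPKM, and the leukocyte marker PTPRC did not exceed 0.396 RPKM. ERBB2, the gene of HER2, had 27.8 to 56.8 RPKM. Of other mesenchymal markers, CD44 had at least 819, ZEB1 19.1 and FN1 36.8 RPKM. Among epithelial markers KRT8 had at least 595 and EPCAM 7.08 RPKM in MDA-MB-231, beside at most 71.0 and 0.0862 in Hs-578T. KRT18 had at least 141 RPKM in all libraries and CDH1 at most 1.16. PDGFRB (fibroblasts) had 150 to 216 and PECAM1 (endothelium) 2.81 to 6.48 RPKM in Hs-578T, but at most 14.9 and 0.841 in MDA-MB-231. The parts of the passage, the clone and the MAP2K5 level in the results that follow were not tested.

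The 103 genes were mostly of low to moderate level. Their mean RPKM over the 12 libraries ran from 0.447 to 435 with a median of 5.85, beside 15.1 over all genes tested, and 5 of them averaged under 1. With a filter of 1 RPKM in place of 0.5, 102 of them were kept. The median gene of the 103 had 3.65 and 3.76 RPKM in the MDA-MB-231 parental control, 7.40 and 7.91 in ERK5-ko and 1.47 and 1.67 in MEK5DD. In Hs-578T the median gene had 5.71 and 5.67 RPKM in the parental control, 2.44 and 2.43 in ERK5-ko and 6.27 and 6.59 in MEK5DD. The ERK5-ko libraries were thus the high pair in MDA-MB-231 and the low pair in Hs-578T, as the selection requires. The MEK5DD libraries entered the filter but not the differences of the selection. They were the low pair in MDA-MB-231 and close to the parental control in Hs-578T.

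**Figure D1:**
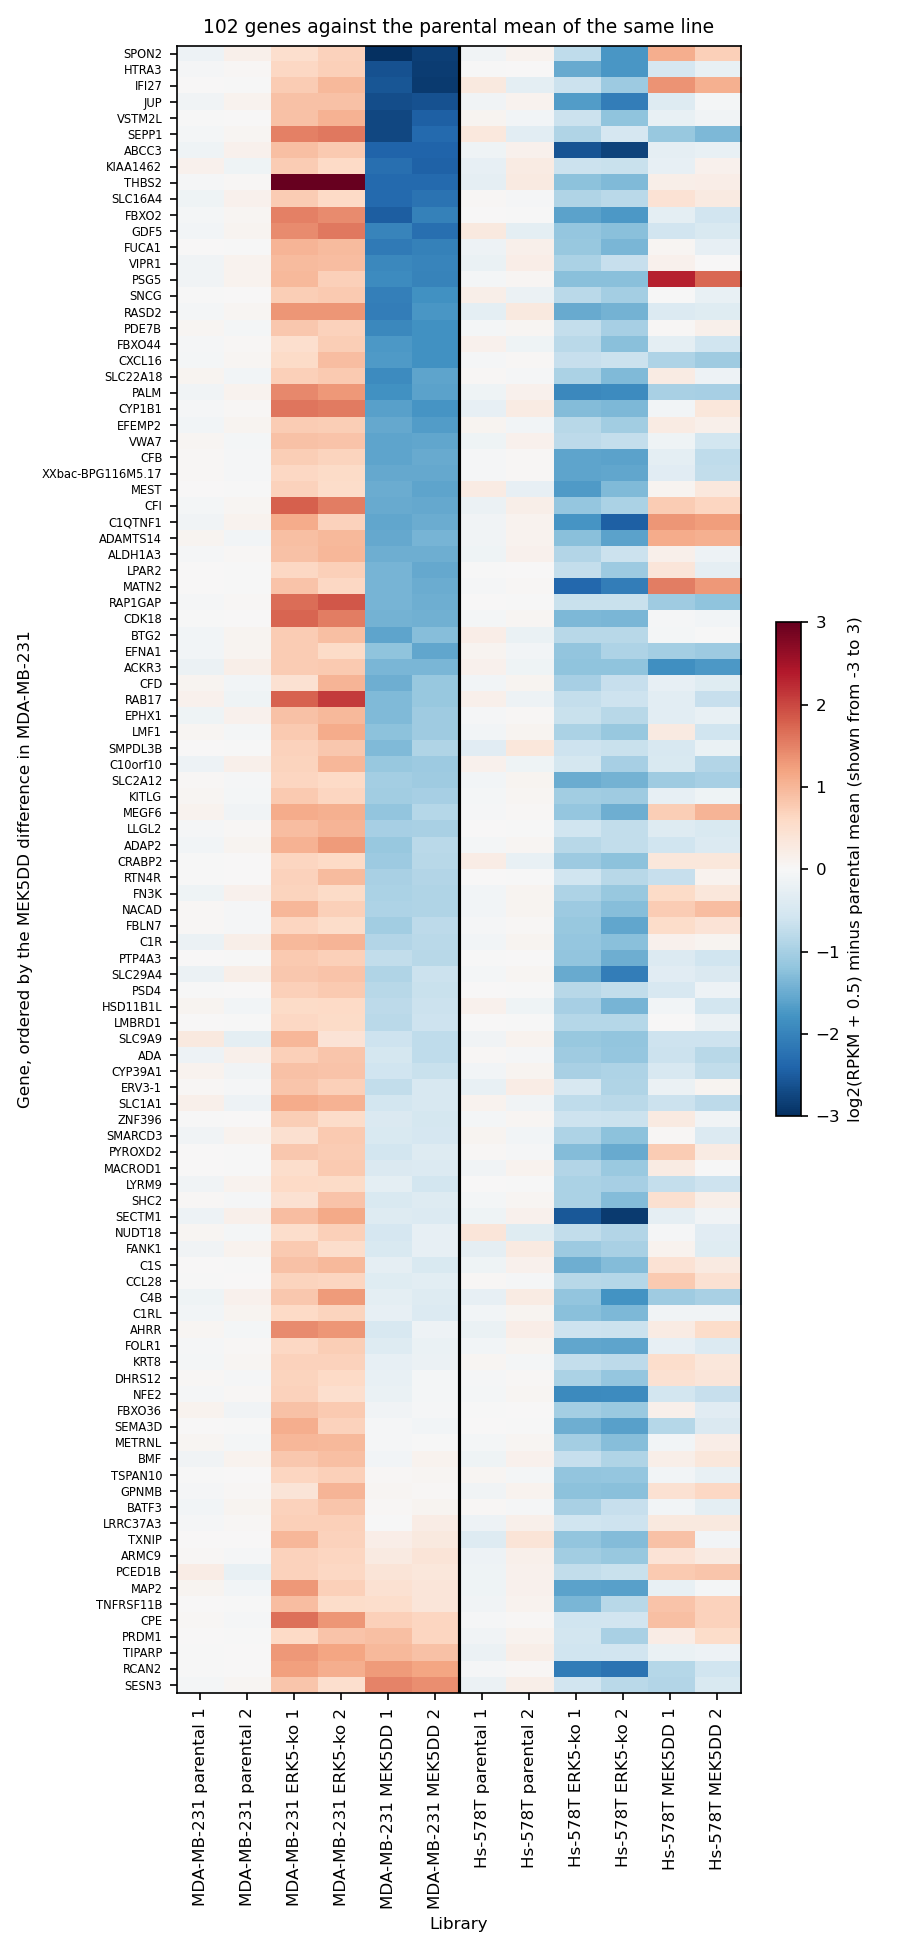
Heat map of 102 of the 103 genes (rows) in the 12 libraries (columns), ordered by the MEK5DD difference in MDA-MB-231. Colour is log2(RPKM + 0.5) minus the parental mean of the same line, red above and blue below it and cut at -3 and 3, and the MDA-MB-231 MEK5DD columns are blue for most genes, down to -2.99 for SPON2, and red for SESN3 at 1.45.

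The differences that chose the genes are given as a description. From parental control to ERK5-ko they ran from 0.59 to 3.21 with a median of 0.78 on the log2(RPKM + 0.5) scale in MDA-MB-231, where the median of all genes was -0.04, and from -2.71 to -0.59 with a median of -1.06 in Hs-578T, where it was 0.01. The 2 ERK5-ko libraries lay above the 2 parental libraries for all 103 genes in MDA-MB-231, as for 27.1% of all genes tested, and below them for all 103 in Hs-578T, as for 34.2%. Just inside the limits were LYRM9 (0.59 in MDA-MB-231, -0.97 in Hs-578T), TIPARP (1.24 and -0.59) and CPE (1.49 and -0.59). Just outside were ANXA4 (0.57 and -0.83), TMEM8B (0.58 and -0.81) and NDRG2 (0.58 and -1.13). As bulk RNA was sequenced, fewer cells that express a gene and less of its RNA per cell cannot be told apart.

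The positions of the genes in the genome are given as a description. Of the 103 genes, 24 lay within 1 Mb of another of them, in 15 pairs, and how many pairs other genes form was not computed. FBXO2 and FBXO44, which encode substrate-binding F-box subunits of ubiquitin ligases, start head to head on chromosome 1. C1R overlaps C1RL on chromosome 12 and lies 9177 bases from C1S. The gap was 62678 bases between CFB and C4B on chromosome 6, 247943 and 111314 bases between SHC2, PALM and CFD on chromosome 19, and 328494 to 672275 bases between TSPAN10, SECTM1, FN3K and METRNL on chromosome 17. Chromosome 1 held 14 of the genes, 1.02% of its tested genes, and chromosomes 6 and 17 held 12 each, 1.69% and 1.45% of theirs, where the 103 genes were 0.75% of all tested. As counting by strand is not stated, reads of 49 genes that overlap a gene of the opposite strand and 18 that overlap a gene of the same strand are uncertain, FBXO2 with FBXO44 and C1R with C1RL among them.

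Promoter windows from RefSeq (GRCh38.p14, 250 bases before to 50 after the first listed start of a gene) were matched for 82 of the 103 genes. Windows of 5 genes are printed because the results below turn on these genes or on a neighbour that moved with them: the head-to-head pair, THBS2, a complement gene and a target of the aryl hydrocarbon receptor. All are written 5′ to 3′ in the direction of the gene, with matches in capitals, counted as the first base of the match from the start site. FBXO2 (chr1:11654380-11654679, minus strand) has GC boxes (GGGCGG, either strand) at -83, -56, -51 and 25, and FBXO44 (chr1:11654157-11654456, plus strand) at -57 and -7. These windows share 77 bases on opposite strands. THBS2 (chr6:169253797-169254096, minus strand) has the TEAD letters GGAATG, in either direction, at -103 and -91, CFB (chr6:31945845-31946144, plus strand) has the STAT letters TTCNNNGAA at -92, and AHRR (chr5:321464-321763, plus strand) has the xenobiotic response letters TNGCGTG, in either direction, at -32.
FBXO2: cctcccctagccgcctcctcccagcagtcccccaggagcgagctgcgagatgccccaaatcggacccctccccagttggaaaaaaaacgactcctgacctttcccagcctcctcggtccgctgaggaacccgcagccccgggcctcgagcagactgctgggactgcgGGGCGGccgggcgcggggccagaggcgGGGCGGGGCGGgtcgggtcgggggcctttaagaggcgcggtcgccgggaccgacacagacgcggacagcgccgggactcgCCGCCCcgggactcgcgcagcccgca
FBXO44: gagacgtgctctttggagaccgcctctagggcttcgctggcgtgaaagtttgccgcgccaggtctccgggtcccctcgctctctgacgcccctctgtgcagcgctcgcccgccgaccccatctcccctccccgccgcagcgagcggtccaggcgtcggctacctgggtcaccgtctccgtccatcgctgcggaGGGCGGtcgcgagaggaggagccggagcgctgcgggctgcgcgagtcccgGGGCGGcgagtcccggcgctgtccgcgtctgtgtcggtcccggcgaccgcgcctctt
THBS2: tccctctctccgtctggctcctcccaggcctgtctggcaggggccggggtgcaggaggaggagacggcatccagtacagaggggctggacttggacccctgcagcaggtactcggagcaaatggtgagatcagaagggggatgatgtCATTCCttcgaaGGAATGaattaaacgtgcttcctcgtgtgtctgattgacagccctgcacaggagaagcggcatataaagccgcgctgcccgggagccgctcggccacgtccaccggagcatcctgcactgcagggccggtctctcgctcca
CFB: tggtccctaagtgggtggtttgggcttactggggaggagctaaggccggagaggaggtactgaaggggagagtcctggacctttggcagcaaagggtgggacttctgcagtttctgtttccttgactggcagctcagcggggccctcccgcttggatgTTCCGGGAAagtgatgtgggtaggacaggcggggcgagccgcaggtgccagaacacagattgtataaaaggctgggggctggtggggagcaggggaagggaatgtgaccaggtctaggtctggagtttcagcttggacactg
AHRR: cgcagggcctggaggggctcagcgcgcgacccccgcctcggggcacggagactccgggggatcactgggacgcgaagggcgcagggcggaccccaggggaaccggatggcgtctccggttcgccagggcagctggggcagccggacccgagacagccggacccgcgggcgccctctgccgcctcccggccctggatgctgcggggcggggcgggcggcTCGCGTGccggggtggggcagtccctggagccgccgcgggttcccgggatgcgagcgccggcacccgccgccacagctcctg

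Over the 82 windows, 47 held a GC box (57.3%), beside 69.5% of the 10909 tested genes with a window. The TEAD letters stood in 11 windows (13.4%) beside 11.1%, the STAT letters in 7 (8.54%) beside 6.46% and the xenobiotic response letters in 9 (11%) beside 7.10%. The AP-1 letters TGANTCA with C or G in the middle stood in 6 windows (7.32%) beside 3.03%, the E-box CAGGTG in 19 (23.2%) beside 18.0%, and TATAAA in 8 (9.76%) beside 5.79%. The MEF2 motif stood in none of the 82 windows, beside 0.908%, and the CArG box of SRF in 1, that of HTRA3 (1.22%), beside 1.09%. All motifs were searched on both strands, and a window was counted once however many matches it held, overlapping ones included, and the xenobiotic and STAT letters were chosen after the genes were known. The median share of G and C was 63.3% in these windows and 65.0% in all. A match describes letters in a window and no bound factor.

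The gene with the largest difference between ERK5-ko and parental control in MDA-MB-231 was THBS2 (ENSG00000186340.14, chr6:169215780-169254044), which encodes thrombospondin-2, a matricellular glycoprotein known as an inhibitor of angiogenesis. It had 2.11 and 2.28 RPKM in the MDA-MB-231 parental control, 27.1 and 21.9 in ERK5-ko, and 0.0370 and 0.0321 in MEK5DD. In Hs-578T it had 1.70 and 2.73 RPKM in the parental control, 0.628 and 0.570 in ERK5-ko, and 2.49 and 2.56 in MEK5DD. The 3 labels did not overlap in MDA-MB-231, where each MEK5DD value stands for 2 reads, so that no fold is given for it, and in Hs-578T the ERK5-ko pair alone stood apart.

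FBXO2 (ENSG00000116661.9, chr1:11648367-11655785) was the gene whose smaller difference was furthest from the limits, at 1.46 in MDA-MB-231 and at -1.67 in Hs-578T on the log2 scale. Its RPKM in MDA-MB-231 was 3.32 and 3.68 in the parental control, 10.9 and 10.1 in ERK5-ko and 0.224 and 0.485 in MEK5DD, and in Hs-578T 5.95 and 5.85, 1.59 and 1.44, and 4.72 and 3.80. Its neighbour FBXO44 had 4.94 and 5.19 RPKM in the MDA-MB-231 parental control, 7.42 and 8.80 in ERK5-ko and 1.18 and 1.07 in MEK5DD, and 20.8 and 17.3, 10.7 and 7.72, and 15.5 and 12.3 in Hs-578T. Both genes stood in the order MEK5DD, parental control, ERK5-ko in MDA-MB-231 with no overlap between labels. The difference of FBXO2 between MEK5DD and parental control in MDA-MB-231 was -2.24 ± 0.15 (log2, SE; limma adjusted p = 4.29e-07).

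CYP1B1, CDK18, PALM and RCAN2 were also far inside both limits. CYP1B1 (ENSG00000138061.11, chr2:38066973-38109902), a cytochrome P450 that oxidizes estrogens and polycyclic hydrocarbons, had 156 and 163 RPKM in the MDA-MB-231 parental control, 483 and 467 in ERK5-ko and 51.0 and 46.5 in MEK5DD. In Hs-578T it had 14.5 and 20.7, 6.71 and 6.56, and 16.3 and 21.9. It was at least 46.5 RPKM in every MDA-MB-231 library and at most 21.9 in every Hs-578T library, whatever the label, and its MEK5DD level in MDA-MB-231 differed from the parental control by -1.70 ± 0.16 (log2, SE; limma adjusted p = 6.33e-06).

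CDK18 (chr1:205504595-205532793), a cyclin-dependent kinase of the PCTAIRE group, had 1.08 and 1.11, 4.88 and 4.12, and 0.101 and 0.0875 RPKM in the parental control, ERK5-ko and MEK5DD of MDA-MB-231, where each of the last pair stands for 3 reads. In Hs-578T it had 2.73 and 3.05, 0.833 and 0.802, and 2.80 and 2.72 RPKM. The MEK5DD pair in Hs-578T lay within or beside the range of the parental pair. PALM (chr19:708939-748329), a lipid-anchored protein of the inner plasma membrane, had 1.61 and 1.98, 5.68 and 5.16, and 0.148 and 0.257 RPKM in MDA-MB-231 and 3.97 and 4.81, 0.769 and 0.808, and 1.99 and 1.94 in Hs-578T, so that in Hs-578T its MEK5DD pair lay between the other pairs.

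RCAN2 (chr6:46220736-46491972), a regulator of the phosphatase calcineurin, departed from that order. It had 1.26 and 1.31 RPKM in the MDA-MB-231 parental control, 3.72 and 3.29 in ERK5-ko and 3.81 and 3.57 in MEK5DD, and in Hs-578T 27.9 and 28.9, 6.21 and 5.74, and 15.5 and 18.7. In MDA-MB-231 MEK5DD was higher than the parental control by 1.23 ± 0.12 (log2, SE; limma adjusted p = 6.88e-06) and overlapped ERK5-ko. SESN3 (chr11:95165540-95232541), sestrin-3, a stress-responsive regulator of mTORC1 signalling, was the other strong exception, with 4.76 and 5.19, 9.19 and 7.20, and 14.9 and 14.0 RPKM in MDA-MB-231 and 15.4 and 20.1, 11.7 and 9.78, and 9.42 and 12.6 in Hs-578T. Its MEK5DD difference in MDA-MB-231 was 1.45 ± 0.17 (log2, SE; limma adjusted p = 3.95e-05), with both MEK5DD libraries above every other library of that line.

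**Figure D2:**
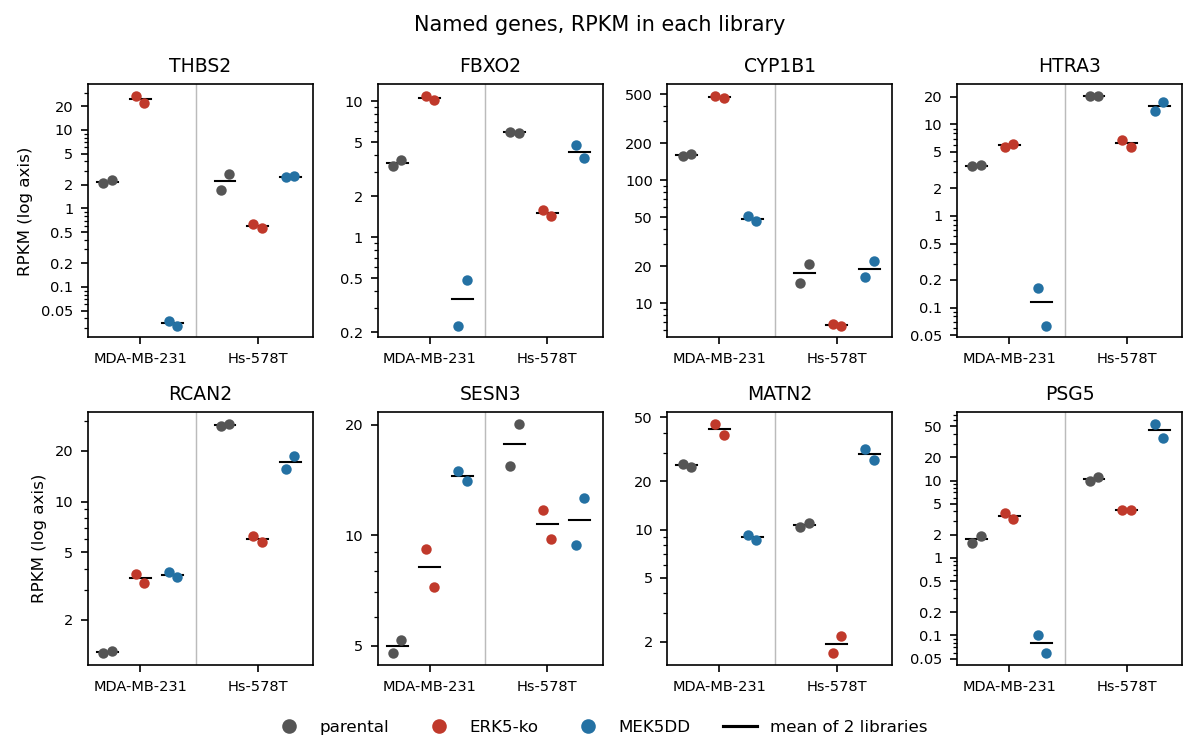
RPKM of 8 of the genes (THBS2, FBXO2, CYP1B1, HTRA3, RCAN2, SESN3, MATN2 and PSG5) in each of the 12 libraries. The vertical axis is RPKM on a log scale, each point is 1 library, coloured by label (grey parental, red ERK5-ko, blue MEK5DD) and split by line, and black bars are the means of 2 libraries. RCAN2 and SESN3 are the panels where the MDA-MB-231 MEK5DD points lie above the parental points, at 3.81 and 3.57 RPKM for RCAN2 and 14.9 and 14.0 for SESN3.

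The largest differences of the ERK5-ko cells in Hs-578T belonged to SECTM1 and ABCC3. SECTM1 (chr17:82321024-82334074), a secreted and transmembrane ligand of the T cell protein CD7, had 116 and 137 RPKM in the Hs-578T parental control, 21.1 and 16.9 in ERK5-ko and 105 and 118 in MEK5DD, and 15.2 and 18.7, 32.3 and 37.8, and 12.7 and 12.5 in MDA-MB-231. ABCC3 (chr17:50634777-50692252), an export pump for conjugated organic anions, had 38.5 and 46.4, 6.64 and 5.76, and 35.2 and 36.3 RPKM in Hs-578T and 40.9 and 49.0, 84 and 77.8, and 8.10 and 8.05 in MDA-MB-231. For SECTM1 the Hs-578T parental and MEK5DD pairs overlapped, and for ABCC3 the MDA-MB-231 MEK5DD pair lay far below the others, at -2.40 ± 0.12 against the parental control (log2, SE; limma adjusted p = 3.61e-08).

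Genes were next grouped by lists of function that were written with earlier results of these data known. Of the 103 genes, 44 were in at least 1 of 16 such lists, and 56 with 3 more lists that were added after the genes were seen. The counts of list genes called lower with MEK5DD in MDA-MB-231 are to be read beside 47.6% of all 103 genes, 46.7% of the 289 other genes at least 0.585 higher in ERK5-ko of that line, and 6.31% of all genes tested, where 7.64% were called higher. None of the 103 was among 15 tested genes of the MEK5-ERK5 cascade and its reported targets, 13 AP-1 and immediate early factors, 12 feedback genes of ERK1/2, 29 collagens or 170 integrins, cadherins and other adhesion molecules. The 103 genes were 0.75% of all tested, and at that share lists of these sizes would hold few or none of them. Each count of list genes that follows is to be read beside the same share.

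Complement, the plasma cascade that marks surfaces for destruction and starts when C1r and C1s cleave C4 and C2 or when factors B and D build the alternative convertase, held 7 of the 103 genes among 25 tested, a list added after the genes were seen. C1R and C1S, the proteases of the first component, and C1RL, a related protease, were higher in every Hs-578T library than in any MDA-MB-231 library. C1R (ENSG00000159403.15, chr12:7080209-7092607) had 6.67 and 8.62 RPKM in the MDA-MB-231 parental control, 15.4 and 15.9 in ERK5-ko and 3.90 and 4.12 in MEK5DD, but 288 and 326, 136 and 128, and 334 and 326 in Hs-578T. C1S (chr12:6988259-7071032) had 0.580 and 0.573, 1.48 and 1.60, and 0.398 and 0.287 RPKM in MDA-MB-231 and 116 and 137, 45.5 and 51.2, and 171 and 153 in Hs-578T. C1RL (chr12:7089587-7109273) had 8.03 and 9.20, 13.3 and 14.0, and 7.15 and 6.36 RPKM in MDA-MB-231 and 180 and 202, 79.3 and 74.5, and 177 and 178 in Hs-578T. The MEK5DD difference of C1R in MDA-MB-231, -0.84 ± 0.11 (log2, SE; limma adjusted p = 0.000111), did not reach the fold of 0.5 asked of a lower call.

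CFB (chr6:31945650-31952084), factor B of the alternative pathway, had similar levels in the parental controls of the lines. Its RPKM was 34.4 and 33.2, 56.3 and 53.8, and 11 and 11.6 in MDA-MB-231 and 28.1 and 29.6, 9.28 and 9.10, and 23.6 and 16.9 in Hs-578T. CFI (chr4:109740694-109802179), factor I, which inactivates C3b and C4b, had 1.16 and 1.28, 5.41 and 4.49, and 0.104 and 0.0899 RPKM in MDA-MB-231 and 9.13 and 11.9, 4.39 and 5.17, and 17.9 and 16.5 in Hs-578T. CFD, the serine protease factor D, had 2.39 and 2.12, 3.28 and 5.05, and 0.499 and 0.757 RPKM in MDA-MB-231 and 0.875 and 1.06, 0.229 and 0.413, and 0.741 and 0.634 in Hs-578T. All 3 fell with MEK5DD in MDA-MB-231, CFB by 1.54 (SE 0.13, adjusted p = 2.52e-06), CFI by 1.52 (SE 0.14, adjusted p = 6.56e-06) and CFD by 1.30 (SE 0.19, adjusted p = 0.000192) on the log2 scale in limma.

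CFI also rose with MEK5DD in Hs-578T, by 0.69 ± 0.14 (log2, SE; limma adjusted p = 0.00567), a call lost without the first Hs-578T parental library, which left 0.51. C4B had at most 2.48 RPKM in any library, and 2 and 1 reads in the MDA-MB-231 MEK5DD libraries. It shares nearly all of its sequence with C4A, so its reads are uncertain. So are those of CFB, which shares its region with a readthrough gene and C2. Of the 18 other complement genes tested, 2 were called higher in ERK5-ko of MDA-MB-231 (CLU and VTN), where 2.8% of all genes were called higher and 1.07% lower, and in Hs-578T none was called higher and 5 lower (C2, C4A, C7, COLEC12 and SERPING1), where 9.35% and 3.27% of all genes were. With MEK5DD, 4 of the 18 were called lower in MDA-MB-231, whereas in Hs-578T 2 were called higher, where 2.9% of all genes were, and 2 lower, where 1.49% were.

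**Figure D3:**
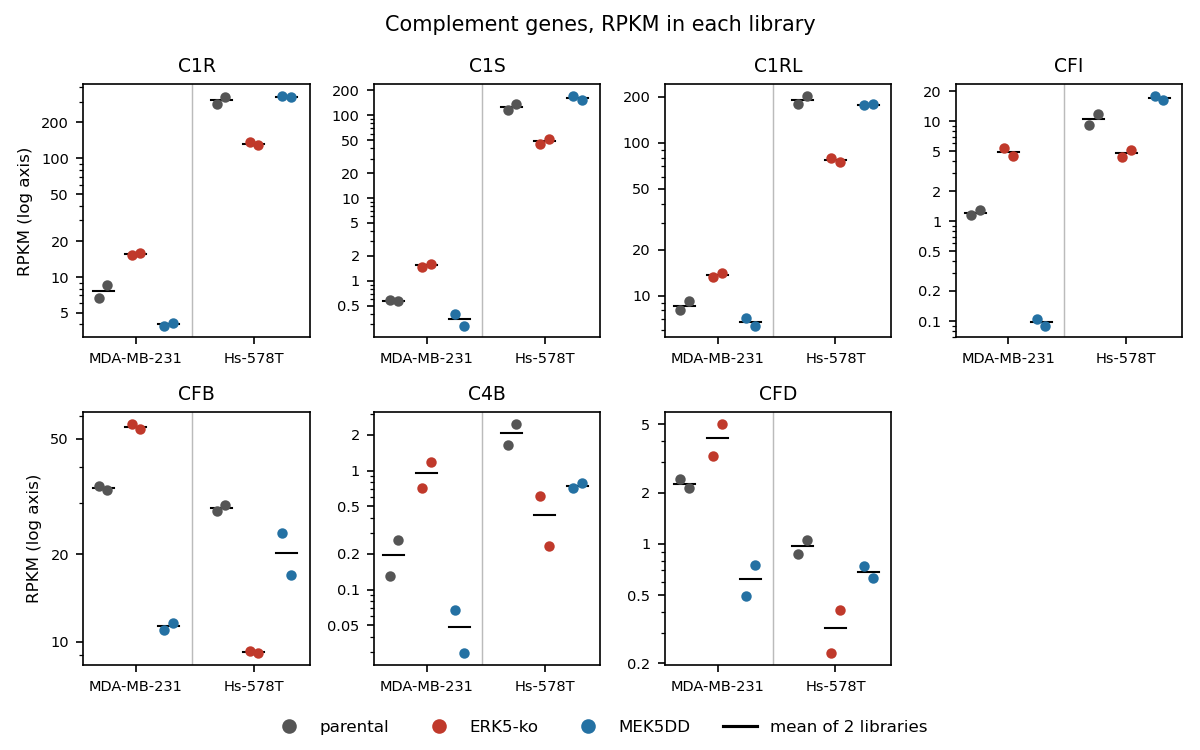
RPKM of the 7 complement genes among the 103 in each of the 12 libraries. The vertical axis is RPKM on a log scale, each point is 1 library, coloured by label (grey parental, red ERK5-ko, blue MEK5DD) and split by line, and black bars are the means of 2 libraries. C1S and C1R lie far higher in Hs-578T than in MDA-MB-231 under every label, at 171 and 153 RPKM against 0.398 and 0.287 for C1S in MEK5DD.

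The aryl hydrocarbon receptor is a ligand-activated transcription factor that induces CYP1 enzymes and its own repressors. Its list, also added after the genes were seen, held 3 of the 103 genes among 10 tested: CYP1B1, AHRR, the receptor's repressor, and TIPARP, a mono-ADP-ribosyltransferase that limits its activity. AHRR (chr5:304176-438291) had 1.10 and 0.997, 3.66 and 3.35, and 0.602 and 0.886 RPKM in MDA-MB-231 and 89.5 and 119, 66.8 and 65.7, and 123 and 152 in Hs-578T. TIPARP (chr3:156673235-156706770) had 20.7 and 21.2, 52.2 and 48.0, and 41.5 and 39.0 RPKM in MDA-MB-231 and 79.6 and 101, 59.2 and 59.8, and 78.3 and 80.8 in Hs-578T. The 3 genes did not order the lines alike, since CYP1B1 was higher in MDA-MB-231 while AHRR and TIPARP were higher in Hs-578T, nor did they move alike with MEK5DD in MDA-MB-231, where CYP1B1 fell and TIPARP rose by 0.93 ± 0.11 (log2, SE; limma adjusted p = 3.73e-05). None of the 7 other genes of the list was called in the ERK5-ko cells of either line, though they were not all flat. In Hs-578T NQO1 and UGT1A6 differed from the parental control by -0.79 and -0.87 (log2), short of the fold of 0.5. CYP1A1 went the other way there, by 0.58. The receptor AHR itself differed from the parental control by 0.43 in MDA-MB-231 and by -0.63 in Hs-578T on the log2 scale, the first of which lies under the limit of the selection.

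Matrix proteins other than collagens contributed 5 genes of 87 tested (FBLN7, THBS2, EFEMP2, MATN2 and SPON2), and matrix proteases and their inhibitors 2 of 123 (ADAMTS14 and HTRA3). MATN2 (matrilin-2, a filament-forming adaptor of the matrix; ENSG00000132561.13) had 25.5 and 24.7, 45.7 and 38.9, and 9.30 and 8.59 RPKM in MDA-MB-231 and 10.4 and 11, 1.69 and 2.18, and 31.9 and 27.1 in Hs-578T. MEK5DD was lower than the parental control in the first line by 1.44 (SE 0.13, adjusted p = 4.18e-06) and higher in the second by 1.42 (SE 0.13, adjusted p = 2.9e-05) on the log2 scale in limma, so its MEK5DD pair was the lowest of 1 line and the highest of the other.

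HTRA3 (chr4:8269765-8307111), a secreted serine protease, had 3.47 and 3.61, 5.73 and 6.11, and 0.165 and 0.0634 RPKM in MDA-MB-231 and 20.2 and 20.4, 6.79 and 5.66, and 14.1 and 17.4 in Hs-578T. SPON2 (chr4:1166932-1208962), the secreted pattern-recognition and adhesion protein spondin-2, had 4.37 and 5.56, 7.18 and 8.30, and 0.104 and 0.272 RPKM in MDA-MB-231 and 4.07 and 4.85, 2.44 and 0.985, and 10.1 and 7.59 in Hs-578T. ADAMTS14, which trims the amino-terminal propeptide of procollagens, had 1.45 and 1.23, 2.93 and 3.13, and 0.135 and 0.193 RPKM in MDA-MB-231 and 7.97 and 9.35, 3.35 and 2.49, and 19.4 and 18.6 in Hs-578T. These 3 genes share the order MEK5DD, parental control, ERK5-ko in MDA-MB-231. With MEK5DD in that line HTRA3 fell by 2.72 (SE 0.13, adjusted p = 3.47e-08) and SPON2 by 2.99 (SE 0.27, adjusted p = 4.86e-06), and in Hs-578T ADAMTS14 rose by 1.09 (SE 0.14, adjusted p = 0.000315), on the log2 scale in limma. EFEMP2, the elastic-fibre protein fibulin-4, had 4.30 and 4.87, 8.04 and 7.91, and 1.25 and 1.08 RPKM in MDA-MB-231 and 132 and 119, 70.3 and 60.4, and 149 and 139 in Hs-578T. In all, 4 of the 5 matrix proteins and both proteases were called lower with MEK5DD in MDA-MB-231, while the 82 other matrix proteins split into 13 higher and 14 lower and the 121 other proteases and inhibitors into 17 higher and 22 lower.

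Among cytokines, growth factors and their binding proteins 7 of 182 tested genes belonged to the 103, and 4 of these were called lower with MEK5DD in MDA-MB-231, while the other 175 split into 31 higher and 29 lower. KITLG, the ligand of the receptor KIT, had 16.9 and 15.6, 28.3 and 25.7, and 7.56 and 7.92 RPKM in MDA-MB-231 and 9.96 and 11, 4.80 and 4.76, and 8.80 and 9.54 in Hs-578T. GDF5, a ligand of the bone morphogenetic protein family, had 5.41 and 6.18, 16.3 and 18.2, and 1.09 and 0.801 RPKM in MDA-MB-231 and 1.73 and 0.994, 0.323 and 0.267, and 0.718 and 0.827 in Hs-578T. Both ligands had their highest values in MDA-MB-231 ERK5-ko. TNFRSF11B, the decoy receptor osteoprotegerin and the 1 gene of the 103 among 199 tested receptors, had 1.77 and 1.72, 3.79 and 2.77, and 2.76 and 2.39 RPKM in MDA-MB-231 and 32.3 and 37.9, 13.2 and 19.5, and 64.1 and 56.6 in Hs-578T, where MEK5DD was higher than the parental control by 0.77 ± 0.18 (log2, SE; limma adjusted p = 0.0104). That call was lost without the first parental library (adjusted p = 0.0569) or the first MEK5DD library (adjusted p = 0.0543) of Hs-578T in limma.

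G protein-coupled receptors and G protein regulators contributed 4 of 191 tested genes, the receptors VIPR1, ACKR3 and LPAR2 and the phosphodiesterase PDE7B, and all 4 were called lower with MEK5DD in MDA-MB-231, while the other 187 split into 23 higher and 25 lower. VIPR1, a receptor of vasoactive intestinal peptide, had 43.5 and 49.7, 90.8 and 88.2, and 11.8 and 11.5 RPKM in MDA-MB-231 and no more than 0.973 in any Hs-578T library, and fell with MEK5DD in MDA-MB-231 by 1.95 (SE 0.15, limma adjusted p = 1.01e-06) on the log2 scale. ACKR3, an atypical receptor that scavenges the chemokine CXCL12, was listed at 0 in both MDA-MB-231 MEK5DD libraries beside 0.639 and 0.964 RPKM in the parental control and 1.70 and 1.73 in ERK5-ko. In Hs-578T ACKR3 had 4.75 and 3.94, 1.60 and 1.59, and 0.848 and 0.971 RPKM, so that MEK5DD lay below ERK5-ko, at -1.78 ± 0.13 against the parental control (log2, SE; limma adjusted p = 9.14e-06). LPAR2, a receptor of lysophosphatidic acid, had 8.09 and 7.82, 12.4 and 13.4, and 2.69 and 2.44 RPKM in MDA-MB-231 and 1.56 and 1.59, 0.773 and 0.479, and 2.15 and 1.22 in Hs-578T.

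Small GTPases and their regulators contributed 4 of 341 tested genes, 3 of them called lower with MEK5DD in MDA-MB-231, while the other 337 split into 28 higher and 25 lower. RAP1GAP, which switches off RAP1, had 1.90 and 2.02, 7.38 and 8.43, and 0.435 and 0.393 RPKM in MDA-MB-231 and 3.95 and 3.81, 2.24 and 2.25, and 1.59 and 1.40 in Hs-578T. MEK5DD was its lowest pair in both lines, at -1.13 ± 0.11 against the parental control in Hs-578T (log2, SE; limma adjusted p = 4.32e-05). RAB17, a GTPase of epithelial trafficking, had 1.90 and 1.54, 7.08 and 8.95, and 0.383 and 0.513 RPKM in MDA-MB-231, and RASD2, a GTPase of striatal signalling, had 3.56 and 3.93, 10.2 and 10.1, and 0.50 and 0.772. In Hs-578T RAB17 did not exceed 0.476 RPKM, and its ERK5-ko pair, 0.0319 and 0.0691 RPKM, stands for 1 and 2 reads. RASD2 did not exceed 1.97 RPKM in that line.

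Transporters and channels contributed 7 of 443 tested genes, of which 4 were called lower with MEK5DD in MDA-MB-231, while the other 436 split into 47 higher and 51 lower. Genes of lipid and xenobiotic metabolism contributed 5 of 219, of which 3 were called lower, while the other 214 split into 24 higher and 22 lower. SLC1A1, a glutamate transporter, had 4.33 and 3.36, 8.90 and 8.44, and 2.46 and 2.62 RPKM in MDA-MB-231 and 31.3 and 27.0, 17.0 and 16.3, and 18.3 and 16.8 in Hs-578T, where the MEK5DD pair overlapped ERK5-ko and lay below the parental control. ALDH1A3, an enzyme that makes retinoic acid, had 5.56 and 5.83, 10.9 and 11.8, and 1.76 and 1.73 RPKM in MDA-MB-231 and 43.4 and 51.2, 25.5 and 30.2, and 52.3 and 42.1 in Hs-578T. Transcription factors contributed 5 of 923, of which PRDM1, a repressor of lymphoid and epidermal fate, was called with MEK5DD in MDA-MB-231 and was higher. BATF3, a basic leucine zipper factor, had 4.29 and 4.80, 7.63 and 8.40, and 4.69 and 4.84 RPKM in MDA-MB-231 and 2.27 and 2.13, 0.871 and 1.16, and 2.07 and 1.71 in Hs-578T.

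Among the 84 tested genes of interferon response and antigen presentation was IFI27. It encodes an interferon-induced mitochondrial protein and had 77.5 and 75.6, 131 and 150, and 12.6 and 10.1 RPKM in MDA-MB-231 and 2.03 and 1.19, 0.827 and 0.478, and 4.79 and 3.81 in Hs-578T. Its fall with MEK5DD in MDA-MB-231 was 2.71 on the log2 scale (SE 0.20, limma adjusted p = 1.01e-06). The list as a whole leaned the same way in that comparison. Of the 84 genes, 23 were called lower and 3 higher, where 6.31% and 7.64% of all genes tested were. The FOXO target list, added after the genes were seen, held 5 of 17 tested genes.

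Whether MEK5DD moved the genes against the direction of ERK5-ko was looked at with the parental libraries as the shared reference, so both comparisons rest on the same control values and neither supports the other. In MDA-MB-231, 49 of the 103 genes were called lower with MEK5DD (47.6%), where 6.31% of all genes tested were, and 5 were called higher, where 7.64% were. The 5 were SESN3, RCAN2, TIPARP, PRDM1 and CPE. Their median difference was -0.96 over the 103 genes and -0.01 over all genes on the log2 scale, and it was also -0.96 with the 7 genes at 3 reads or fewer in the MEK5DD libraries set to 3 reads. Of the 289 other genes at least 0.585 higher in ERK5-ko in that line, 46.7% were called lower with MEK5DD, so the share among the 103 was near that of genes chosen in MDA-MB-231 alone.

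The same held for the order of the labels. For 86 of the 103 genes (83.5%) the MDA-MB-231 libraries stood in the order MEK5DD, parental control, ERK5-ko with no overlap, where 17.1% of all genes did and 80.6% of the 289 other genes higher in ERK5-ko. In Hs-578T the MEK5DD pair lay above the ERK5-ko pair for 93 genes (90.3%), where 28.3% of all genes did and 85.9% of the 1249 other genes at least 0.585 lower in ERK5-ko. The MEK5DD mean lay nearer to the parental mean than to the ERK5-ko mean for 97 of the 103 genes in MDA-MB-231, as for 266 of those 289 genes and 9360 of all 13737. In Hs-578T this held for 84 of the 103, as for 942 of those 1249 genes and 9346 of all 13737.

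In Hs-578T the comparison with the parental control called few of the genes. With MEK5DD, 13 of the 103 genes were called higher (12.6%), where 2.9% of all genes and 6.57% of the 1249 others were, and 6 were called lower (5.83%), where 1.49% and 5.52% were. The median difference was -0.12, beside -0.08 over all genes on the log2 scale. With a fit to the libraries compared alone, none of the 103 passed as higher in limma and 1 as lower, while 13 and 6 did at an unadjusted p under 0.05 with the same folds, so these counts rest on a spread estimated over all 12 libraries.

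PSG5 (chr19:43166256-43186536), a pregnancy-specific glycoprotein with near-identical relatives, had the largest rise, from 10 and 11 RPKM in the Hs-578T parental control to 54.1 and 35.5 in MEK5DD, with 4.11 and 4.11 in ERK5-ko, a log2 difference of 2.01 ± 0.17 (SE; limma adjusted p = 2.38e-05). In MDA-MB-231 it had 1.57 and 1.90, 3.84 and 3.18, and 0.101 and 0.0584 RPKM, the last pair standing for 3 and 2 reads. The other 12 higher genes were MATN2, C1QTNF1, IFI27, ADAMTS14, SPON2, MEGF6, NACAD, PCED1B, CPE, TNFRSF11B, CFI and CCL28. ACKR3, RAP1GAP, EFNA1, SLC2A12, C4B and SEPP1 were the 6 lower genes. SEPP1 (SELENOP), the plasma carrier of selenium, had 6.68 and 4.16, 2.57 and 3.59, and 2.15 and 1.76 RPKM in Hs-578T, a MEK5DD difference of -1.24 ± 0.21 (log2, SE; limma adjusted p = 0.00177) that fell short of the fold without the first parental library, at -0.93.

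The change with MEK5DD was also compared between the lines. It was called lower in MDA-MB-231 than in Hs-578T for 40 of the 103 genes (38.8%), where 6.89% of all genes were, and higher for 3, SESN3, RCAN2 and TIPARP, where 15.3% were. Of the 289 other genes higher in MDA-MB-231 ERK5-ko, 46.0% were called lower in this comparison.

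**Figure D4:**
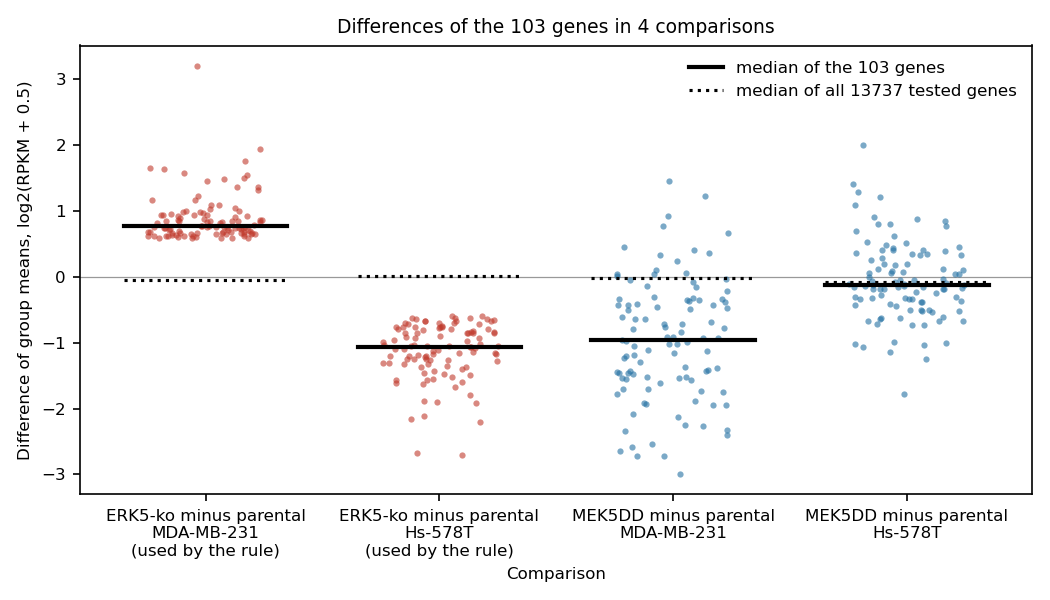
Differences of the 103 genes on the log2(RPKM + 0.5) scale. ERK5-ko minus parental control, which chose the genes, and MEK5DD minus parental control, which shares the parental libraries, are drawn for each line, with each point 1 gene, solid bars the median of the 103 and dotted bars the median of all genes tested. The medians are 0.78 and -0.96 for MDA-MB-231, and -1.06 and -0.12 for Hs-578T.

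The MEK5DD libraries of the lines, which entered the filter but not the differences that chose the genes, were compared directly. Of the 103 genes, 72 were called higher in Hs-578T than in MDA-MB-231 (69.9%), where 23.3% of all genes were, and 10 were called lower (9.71%), where 22.1% were. Their median difference was 1.49 on the log2 scale, beside -0.22 over all genes, and 1.40 with the 7 genes at 3 reads or fewer set to 3 reads. Scaling by the median ratio moved the median of all genes to 0.03 and quantile normalization to -0.09, with 1.63 and 1.48 over the 103 genes. The split of all called genes, 3195 higher and 3034 lower, became 4153 and 2229 with the median ratio and 3601 and 2598 with quantiles. Of the 289 other genes higher in MDA-MB-231 ERK5-ko 42.2% were called higher in Hs-578T, and of the 1249 others lower in Hs-578T ERK5-ko 57.0% were.

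GPNMB (chr7:23235967-23275108), a transmembrane glycoprotein of lysosomes and melanosomes, differed most. It had 776 and 863 RPKM in Hs-578T MEK5DD and 1.47 and 1.45 in MDA-MB-231 MEK5DD, a log2 difference of 8.70 ± 0.16 (SE; limma adjusted p = 1.07e-12). Its ERK5-ko pairs were 241 and 236 RPKM in Hs-578T beside 527 and 602 in the parental control, and 2.0 and 3.35 beside 1.35 and 1.45 in MDA-MB-231, so every Hs-578T library exceeded every MDA-MB-231 library. C1S differed by 7.59 ± 0.12 (adjusted p = 3.97e-13), AHRR by 6.79 ± 0.16 (adjusted p = 4.69e-12), C1R by 6.20 ± 0.11 (adjusted p = 1.01e-12), CFI by 4.89 ± 0.14 (adjusted p = 3.6e-11), HTRA3 by 4.72 ± 0.13 (adjusted p = 2.81e-11) and C1RL by 4.62 ± 0.10 (adjusted p = 3.12e-12), all as log2 ± SE in limma.

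The 10 genes lower in Hs-578T MEK5DD were TXNIP, LLGL2, KRT8, VIPR1, SNCG, CCL28, CYP1B1, IFI27, BATF3 and FOLR1. TXNIP (ENSG00000265972.5, chr1:145992435-145996600), the inhibitor of thioredoxin, had 185 and 197 RPKM in MDA-MB-231 MEK5DD and 4.98 and 2.31 in Hs-578T MEK5DD, a log2 difference of -5.61 ± 0.28 (SE; limma adjusted p = 4.11e-09). LLGL2, a protein of basolateral polarity, had 6.92 and 7.11 beside 0.212 and 0.174 RPKM (log2 difference -3.44 ± 0.10, SE; limma adjusted p = 4.21e-11). KRT8, the keratin of simple epithelia, had 595 and 630 beside 71.0 and 61.4 RPKM (-3.20 ± 0.10; limma adjusted p = 4.74e-11), and VIPR1 had 11.8 and 11.5 beside 0.892 and 0.779 (-3.19 ± 0.15; limma adjusted p = 1.79e-09). Each of the 4 was higher in all 6 MDA-MB-231 libraries than in all 6 Hs-578T libraries.

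**Figure D5:**
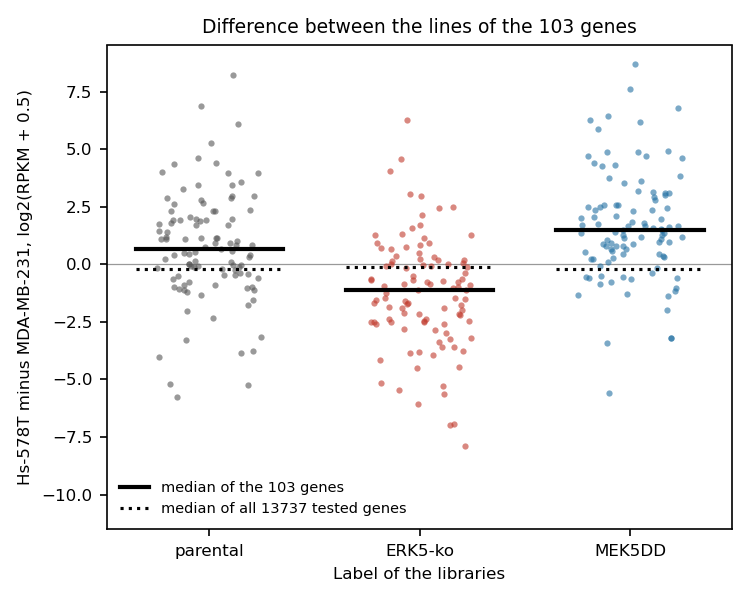
Difference of the 103 genes between Hs-578T and MDA-MB-231 under each label, on the log2(RPKM + 0.5) scale, with each point 1 gene, 0 marking equal levels, solid bars the median of the 103 and dotted bars the median of all genes tested. The median is 0.68 in the parental controls, -1.14 in ERK5-ko and 1.49 in MEK5DD. The parental and ERK5-ko libraries also gave the differences that chose the genes.

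Under the labels that chose the genes, the lines are given as a description. In the parental controls 64 of the 103 genes were higher in Hs-578T, with a median difference of 0.68 (log2) beside -0.19 over all genes, and in ERK5-ko 74 were lower in Hs-578T, with a median of -1.14 beside -0.10. For 35 genes the level was higher in Hs-578T in the parental control and lower there in ERK5-ko. This turn was found for 1044 of all 13737, 46 of the 289 and 301 of the 1249 other genes. Turns the other way were not counted. A gene that is higher in 1 ERK5-ko line and lower in the other moves that way by selection.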

How the data were processed

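RNA of 12 libraries was measured, in groups set by the cell line and the label. The authors deposited RPKM values, made from the reads on each gene, its length and the library total. The submitters' processing notes name bcl2fastq, Trimmomatic 0.32, TopHat2 2.1.1, R 3.3.1, DESeq2 1.12.4 and GRCh38. The counting tool, its strand setting and the annotation are not given in the sources used here.

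Whole reads and library totals were recovered from the RPKM steps (32151 of 32152 genes whole within 0.01 reads, beside 1 of 500 with totals 1% off). Replicates differed by a median of 0.071 to 0.218 on the log2 scale, and no pair was identical. log2(RPKM + 0.5) of 13737 protein-coding genes, those reaching an RPKM of 0.5 in 2 or more libraries, was fitted as 6 group means with limma 3.58.1 in R 4.3.3, with Benjamini-Hochberg adjustment of the p-values over all genes. Following the thresholds of the study, calls needed an adjusted p under 0.05, with a fold above 1.5 for higher genes or below 0.5 for lower ones. The pseudocount understates the change of low genes, and levels resting on at most 3 reads in each library of a group are marked as such, a floor that covers counting error only. The fit was tested on simulated data.

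The comparisons were MEK5DD with parental control in each line, MEK5DD between the lines and the difference of the MEK5DD changes. ERK5-ko with parental control chose the genes and was not tested for them. The genes and the gene lists were chosen with earlier results of these data known. Genes averaging at least 1 RPKM were eligible to be named (98 of the 103), by the size of the difference under each comparison and by list, and 39 were, other genes with values being chosen after they were seen. Some single-gene results are not reported here. Replicate numbers are shared between groups of a line, and deviations of same-numbered libraries correlated at 0.107 to 0.541, so they may be paired. The fit that gave the printed values did not use this pairing, and a fit with the number as a block was run as an alternative. Alternatives were the pseudocount, the filter, the scaling, the fold thresholds, all gene types, a fit to the groups compared, the block, each library left out and voom on the recovered reads. Figures were drawn with Python 3.11.15 and matplotlib 3.10.9.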

Additional observations from a re-analysis of the deposited data

Results flagged for a closer look

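The change with MEK5DD against the parental control differed between the cell lines for 43 of the 103 genes in limma, 40 of them lower in MDA-MB-231 than in Hs-578T, where 6.89% of all genes tested were, and 3 higher (SESN3, RCAN2 and TIPARP), where 15.3% were. Both changes use parental libraries that also chose the genes.

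On the log2 scale, the change in MDA-MB-231 minus that in Hs-578T was -3.92 for IFI27, -3.90 for SPON2, -2.86 for MATN2, -2.56 for ADAMTS14 and -2.36 for HTRA3. It was -3.95 for PSG5, a value that depends on the pseudocount because PSG5 had 3 and 2 reads in the MDA-MB-231 MEK5DD libraries. Among complement genes it was -2.22 for CFI and -1.02 for CFB. For ABCC3, VIPR1, CYP1B1, FBXO2 and SEPP1 it was -2.16, -2.01, -1.82, -1.81 and -1.29. The change was the higher in MDA-MB-231 for SESN3, RCAN2 and TIPARP, by 2.12, 1.95 and 1.10.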

How the results depend on the processing

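The number of genes by the rule, 103, was 76 to 128 under the other scalings, filters and the larger pseudocount, 170 with a pseudocount of 0.1, and 98 to 116 with 1 library left out, of which at least 90 were among the 103. In MDA-MB-231 the counts with MEK5DD were 5 higher and 49 lower, and became 5 to 5 and 46 to 53 with a library left out, and 76 lower with no fold threshold. In Hs-578T 13 higher became 21 with no fold threshold, 0 with the groups compared alone (where 17 of all genes were called higher and 45 lower) and 10 to 15 with a library left out. The 6 lower genes there became 22 with no fold threshold, 17 with a symmetric fold threshold, 10 and 2 with pseudocounts of 0.1 and 1, 3 with the median ratio, 1 with the groups compared alone and 4 to 6 with a library left out. Between the lines 72 higher and 10 lower became 69 to 75 and 9 to 10 with a library left out, and 18 lower with no fold threshold. With the replicate block, the counts were 5 and 49, 13 and 6, and 72 and 10, and it changed no other call. Of 793 alternative values of the genes given with a test, 778 kept their direction and side of the threshold, 12 lost the call, 3 gained it and none reversed. All genes split 1049 to 867 in MDA-MB-231 and 398 to 204 in Hs-578T with MEK5DD, and 1333 to 695 and 586 to 168 with quantiles. Depth limits genes such as THBS2 and ACKR3 at 3 reads or fewer, for which lower levels were not detectable.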
